A study of Oryza sativa Japonica Group with 3 samples.

Results

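Seedlings of rice grown from seed that had received a high dose of nitrogen ions were compared with seedlings grown from seed that had received a low dose. The high fluence library held RNA of seedlings whose seed was implanted with 6 and 8 in units of 1e+17 N+ ions per square centimetre, and the low fluence library held RNA from 1 and 2 of these units. The labels show the exponent as plain digits, taken here as 1e+17. A library of untreated seed served as the control and is shown beside both. All seedlings were whole seedlings of the cultivar Xindao-18 (Oryza sativa, Japonica group), cultured for 96 h at 28 °C under 12 h of light and 12 h of darkness. For each fluence 50 buds of similar height were pooled, and 10 µg of RNA from each of 2 fluence pools was mixed into 1 irradiated library. The labels describe the high fluence material as significantly inhibited in growth relative to the control and the low fluence material as not significantly inhibited, with the biological effect referred to day 7, after the RNA was taken.

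Loci were chosen by the deposited FPKM, fragment numbers divided by transcript length and by the mapped fragments of the library. FPKM was summed over the transcripts of each annotated locus. Of 55759 annotated loci, 9258 stood above 0 in all 3 libraries with a mean of at least 10 FPKM, and 381 of them differed at least 2-fold between high and low fluence on the scale of FPKM + 1. That is 4.12% of the loci past the filter, and the same ratio chose the loci, so nothing is read from their share. With 1 pooled library a side there was no replicate, no p-value and no error bar. Each difference below is a difference between these libraries and could not be set against a spread between replicates.

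Low-energy ion implantation is a mutagenic treatment used in crop breeding, in which accelerated ions are driven into the outer layers of dry seed. A rice seedling a few days after sowing still draws on the reserves of the endosperm while its shoot greens and begins to photosynthesise. In whole seedlings, fewer cells of a type and less RNA per cell cannot be told apart.

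The identifiers of the loci are not paired with gene names in the files. The RefSeq gene table at hand (assembly ASM3414082v1) held none of the 55759 identifiers in full, and its only match to an identifier shortened by LOC_ was not among the 381. No gene name or function is therefore given to any locus, the gene lists by function were not used, and loci are described by their levels, position in the identifier order, transcripts and neighbours.

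Lower loci outnumbered higher ones. At high fluence 107 loci stood at least 2-fold above low fluence, 1.16% of the 9258, and 274 at least 2-fold below it, 2.96%. The median log2 ratio of high to low fluence was 1.29 over the higher loci and -1.28 over the lower loci, against -0.09 over all 9258. Most differences were small: 80 higher and 202 lower loci lay between 2- and 3-fold. At least 4-fold differences were found for 18 higher and 41 lower loci, and at least 16-fold differences for 3 higher and 9 lower loci. The split depends on how the libraries are scaled. Upper-quartile scaling gave 127 higher and 203 lower, centring on bins of mean expression gave 127 and 206, and an equal FPKM sum over annotated loci gave 156 and 177. Rescaling each library to an FPKM sum of 1000000 over all transcripts turned the split to 1436 higher and 22 lower. Annotated loci held 32.0% of all FPKM in the high fluence library and 17.7% in the low fluence library, and the rest stood in assembled or unplaced transcripts.

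**Figure D1:**
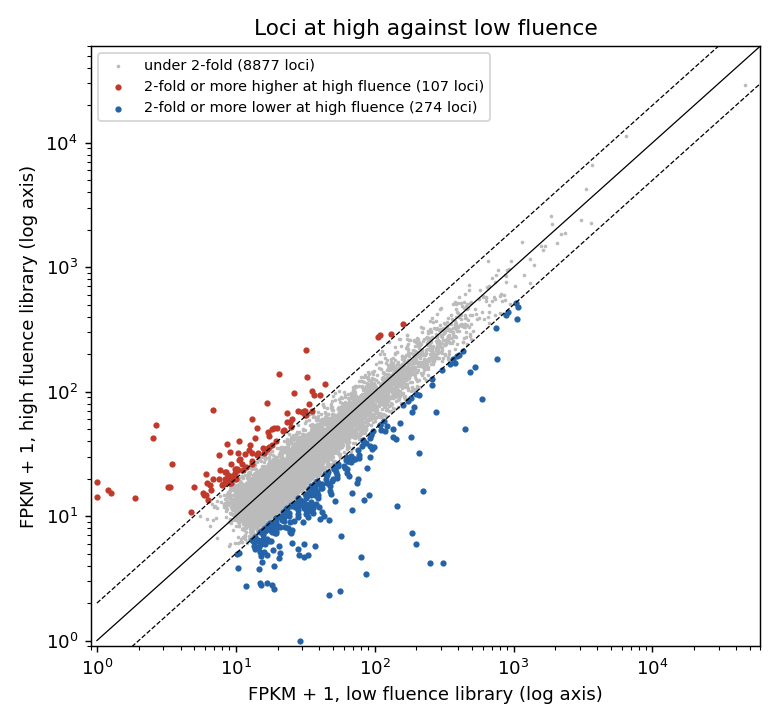
Each point is 1 of the 9258 loci, with FPKM + 1 at low fluence on the x axis and at high fluence on the y axis, both log axes. The solid line marks equal levels and the dashed lines a 2-fold difference; 107 loci lie on or above the upper dashed line and 274 on or below the lower one, some of them far below it.

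The lower loci, which were more numerous, summed to higher levels than the higher ones. Per locus, the median at high fluence was 11.4 FPKM for the lower loci and 30.9 FPKM for the higher ones. At low fluence it was 33.9 FPKM and 10.1 FPKM. Summed over the 274 lower loci, FPKM came to 8831 at high fluence against 24225 at low fluence, which is 1.82% of the sum over all 9258 loci at high fluence and 4.47% at low fluence. The control sum of the same loci was 24376 FPKM, or 4.34%. The 107 higher loci summed to 5314 FPKM at high fluence and 1874 FPKM at low fluence, with 2490 FPKM in the control. The largest difference of a single locus was 4.32% of the total difference of the lower group and 5.58% of that of the higher group. The 10 lower loci with the largest differences in FPKM made up 32.5% of the total difference of the lower group, and the 20 largest 47.7%. In the higher group the 10 largest made up 38.1% and the 20 largest 52.9%.

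The 2 loci with the lowest ratio showed the pattern of the lower group in its strongest form. LOC_Os03g39610 on chromosome 3 stood at 242 FPKM in control seedlings, 309 FPKM in low fluence seedlings and 3.18 FPKM in high fluence seedlings. Its level at high fluence was 74.3-fold below that at low fluence (log2 ratio -6.21). LOC_Os09g17740 on chromosome 9 stood at 198 FPKM in control seedlings, 250 FPKM in low fluence seedlings and 3.23 FPKM in high fluence seedlings. On the same scale it was 59.3-fold below low fluence (log2 ratio -5.89). In both, the control and low fluence libraries were high and the high fluence library alone was near the bottom of the range. LOC_Os12g36240 on chromosome 12 had the highest mean level of the lower loci, and was named after its values were seen. It stood at 1340 FPKM in control seedlings, 1051 FPKM in low fluence seedlings and 385 FPKM in high fluence seedlings. On the same scale that is 2.72-fold below low fluence.

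The 2 loci with the highest ratio differed in which library stood apart. LOC_Os10g31420 on chromosome 10 stood at 2.28 FPKM in control seedlings, 1.67 FPKM in low fluence seedlings and 52.6 FPKM in high fluence seedlings, 20.1-fold higher at high than at low fluence. Here the high fluence library was high and both others were low. LOC_Os04g51710 on chromosome 4 stood at 22.5 FPKM in control seedlings, 0.00845 FPKM in low fluence seedlings and 17.7 FPKM in high fluence seedlings. On the same scale it was 18.5-fold higher. Here the low fluence library was the one that stood apart, and the control was close to high fluence. The assembled transcript unit listed on the row beside LOC_Os04g51710, CUFF.8933, ran the other way, at 2.11 FPKM in control seedlings, 17.6 FPKM in low fluence seedlings and 0.00144 FPKM in high fluence seedlings. Once the unit was added, the log2 ratio of that locus was 0.0021 in place of 4.21. The higher locus with the highest mean level, LOC_Os02g49720 on chromosome 2, was named after its values were seen. It stood at 148 FPKM in control seedlings, 158 FPKM in low fluence seedlings and 350 FPKM in high fluence seedlings, 2.20-fold higher at high than at low fluence.

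Loci on either side of the threshold had similar ratios. LOC_Os03g10030, just inside on the higher side, had 19.0 FPKM at high fluence against 8.97 FPKM at low fluence, and LOC_Os05g13520, just outside, had 23.2 FPKM against 11.2 FPKM. LOC_Os10g40530, just inside on the lower side, had 57.2 FPKM at high fluence against 116 FPKM at low fluence, and LOC_Os01g59530, just outside, had 32.6 FPKM against 66.2 FPKM.

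The control library, which did not enter the ratio but did enter the filter, was set beside both irradiated libraries. Comparisons with the control share libraries with the ratio that chose the loci, so the values are given as a description. Among the lower loci the median control level was close to that at low fluence. Their median level was 37.1 FPKM in control seedlings, 33.9 FPKM in low fluence seedlings and 11.4 FPKM in high fluence seedlings. Relative to the control, their median log2 ratio was -0.04 in the low fluence library and -1.35 in the high fluence library, against -0.07 and -0.15 over all 9258 loci. The control was nearer to low fluence on the log scale for 242 of the 274, or 88.3%, and it was nearer to low fluence for 68.5% of all 9258. High fluence was at least 2-fold below the control for 207 of the 274, where 5.15% of all 9258 were. Low fluence was at least 2-fold above the control for 10 of them and at least 2-fold below it for 6, where 0.907% and 1.03% of all loci were.

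Among the higher loci the control lay between the irradiated libraries for most loci. Their median level was 17.2 FPKM in control seedlings, 10.1 FPKM in low fluence seedlings and 30.9 FPKM in high fluence seedlings. Relative to the control, their median log2 ratio was -0.38 in the low fluence library and 0.96 in the high fluence library. The control value fell between the other two for 58 of the 107, at or above both for 18 and at or below both for 31, or 54.2%, 16.8% and 29.0%. Over all 9258 loci these shares were 26.5%, 48.2% and 25.3%. The control was nearer to low fluence for 66 of the 107, or 61.7%, below the 68.5% of all loci. High fluence was at least 2-fold above the control for 52 of the 107, where 2.37% of all loci were. Low fluence was at least 2-fold below the control for 29 of the 107, where 1.03% of all loci were. Among the 18 loci at least 4-fold higher, the control was nearer to low fluence for 10 and nearer to high fluence for 8. Among the 41 loci at least 4-fold lower, it was nearer to low fluence for 39 and nearer to high fluence for 2.

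**Figure D2:**
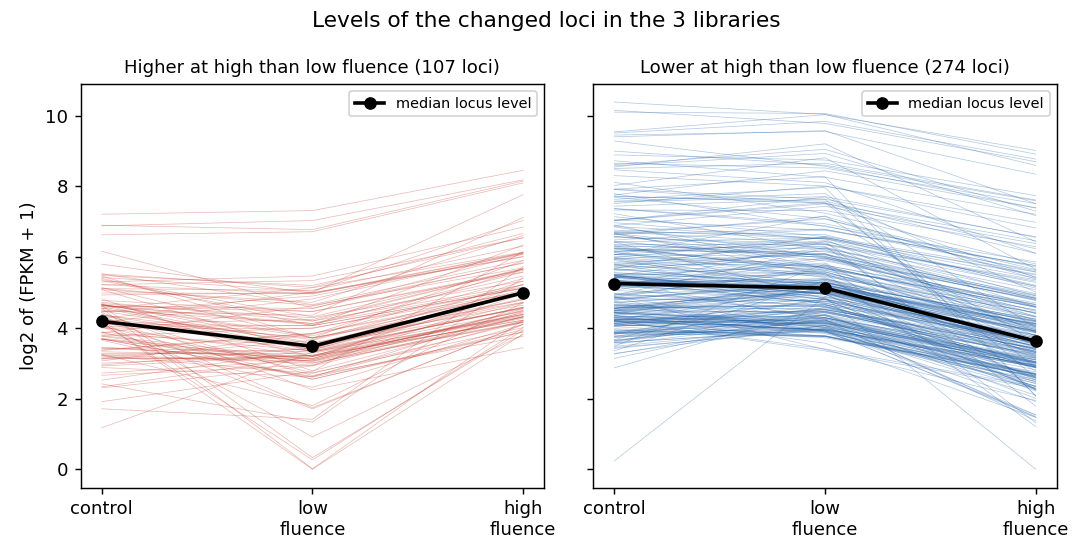
Each thin line is 1 locus and gives its level, as log2 of (FPKM + 1), in the control, low fluence and high fluence libraries. The black points are medians over the 107 higher loci (left) and the 274 lower loci (right). The median of the lower loci runs nearly level from control to low fluence and drops at high fluence, whereas some higher loci drop to near 0 at low fluence alone.

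Low fluence values near 0 made up part of the largest increases. Of the 107 higher loci, 5 stood under 1 FPKM at low fluence, with 16.8 to 23.8 FPKM in the control and 13.0 to 17.7 FPKM at high fluence. All 5 had an assembled unit on the row before or after, and in all 5 such units summed to less at high than at low fluence. With these units added, all 5 were under 2-fold and 4 were under 1.5-fold. The low fluence library was also the shallowest: by the steps between its lowest values it had 0.502 times the depth of the control, and the high fluence library had 1.36 times. The part of depth in these values was not tested.

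Assembled units are transcripts put together from reads, and some may divide reads with an annotated locus. Units on the row just before or just after a locus were taken, and where there were several they were summed as its unit. The same unit could count for more than 1 locus. There was such a unit for 71 of the 107 higher loci, for 128 of the 274 lower ones, and for 55.2% of all 9258 loci. Of the 71, the unit differed at least 2-fold the other way for 23 and the same way for 4. Of the 128, it differed the other way for 18 and the same way for 17. With the units added, at least a 2-fold difference was left in 20 of the 71 higher loci, and in 68 of the 128 that were lower. In the direction of the locus, the difference came to under 1.5-fold for 39 of the 71 and 21 of the 128. The 21 include LOC_Os04g52361, whose log2 ratio turned from -1.34 to 1.04 with its unit added. Adding a unit also dilutes a difference where the unit belongs to another gene, since the files give assembled units no gene or position.

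Most lower loci rest on a single transcript model. Of the 274 lower loci, 223 had 1 annotated transcript, or 81.4%, and of the 107 higher loci 63 had 1, or 58.9%, where 63.7% of all 9258 loci did. At least 2 transcripts averaging 1 FPKM or more were present for 25 higher and 27 lower loci. All of these transcripts differed at least 2-fold in the direction of the locus for 3 of the 25 and 8 of the 27. A single transcript did so, with none going the other way, for 16 of the 25 and 14 of the 27. At least 1 transcript went the other way by 2-fold for 5 of the 25 and 3 of the 27. For most of these loci, then, not every model passed 2-fold in the direction of the locus. On the scale of FPKM + 1 a model with a mean near 1 FPKM passes 2-fold only with a larger difference in FPKM itself. These counts therefore do not place the change in some models. No source used here says how reads were divided between the models of a locus.

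The share of loci that changed varied with level. Among loci with a mean of 10 to 20 FPKM, 57 of 3724 were higher and 101 lower, or 1.53% and 2.71%. Among those of 200 to 500 FPKM, 1 of 301 was higher and 13 were lower, or 0.332% and 4.32%. Among the 51 loci of 500 to 1000 FPKM, 0 were higher and 7 were lower, and among the 19 loci of at least 1000 FPKM none changed 2-fold. The median log2 ratio of all loci was -0.02 for 10 to 20 FPKM, -0.35 for 500 to 1000 FPKM and -0.25 for at least 1000 FPKM, so it did not run in 1 direction to the top.

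Changed loci were found on all 12 chromosomes named in the identifiers, and on each of them more loci were lower than higher at this scaling. Chromosome 10 had the largest shares, with 26 lower and 10 higher of 473 loci, or 5.50% and 2.11%. Chromosome 1 had the smallest share of lower loci, with 27 of 1350, or 2.00%. Chromosome 8 had the smallest share of higher loci, with 2 of 595, or 0.336%.

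**Figure D3:**
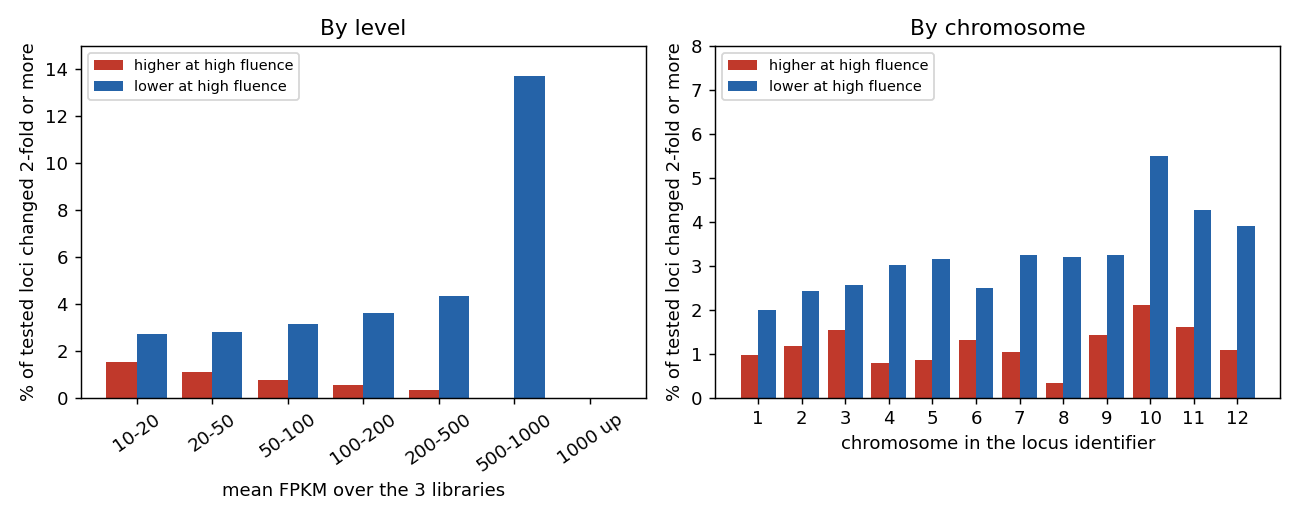
Bars give the percentage of tested loci that were at least 2-fold higher or lower at high than at low fluence, by mean FPKM over the 3 libraries (left) and by the chromosome in the locus identifier (right). The share of lower loci is 13.7% at 500 to 1000 FPKM, from 51 loci, and 5.50% on chromosome 10.

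Some changed loci were neighbours among the loci past the filter. Taking the 9258 loci in the order of their identifiers, 24 runs of at least 2 consecutive loci changed in the same direction, 20 of them lower and 4 higher. The runs held 46 of the 274 lower loci and 8 of the 107 that were higher. How many would lie in runs by their number alone was not worked out. Annotated loci under the filter can lie within a run, and the numbers of its first and last locus lay 10 to 112 apart. Where neighbours are close copies of one another they may share reads, and no source used here says how such reads were assigned.

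The longest run was on chromosome 10, where 6 consecutive loci from LOC_Os10g40460 to LOC_Os10g40530 were lower by a median log2 ratio of -1.39. Its leading locus by mean level, LOC_Os10g40510, stood at 277 FPKM in control seedlings, 151 FPKM in low fluence seedlings and 55.0 FPKM in high fluence seedlings. Each of the 6 ran in the same order, with the control highest, low fluence between and high fluence lowest. Relative to the control, the median log2 ratio of the 6 was -0.92 in the low fluence library and -2.27 in the high fluence library, so low fluence also stood below the control in this run. LOC_Os10g40530, the locus just inside the threshold, belongs to this run and was under 2-fold with all 4 other scalings and with centring on expression bins.

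Both other runs of at least 3 loci held 3 loci and were lower. On chromosome 1, the run led by LOC_Os01g72150 had a median log2 ratio of -1.23 between high and low fluence, and that locus stood at 66.5 FPKM in control seedlings, 63.6 FPKM in low fluence seedlings and 26.6 FPKM in high fluence seedlings. Here the control and low fluence libraries were close and high fluence was low. On chromosome 10, the run led by LOC_Os10g31530 had a median log2 ratio of -1.24, and that locus stood at 115 FPKM in control seedlings, 63.3 FPKM in low fluence seedlings and 26.9 FPKM in high fluence seedlings. Shortly before this lower run in the identifier order came the higher run with the largest ratios, the pair LOC_Os10g31420 and LOC_Os10g31460. LOC_Os10g31460, named after its values were seen, stood at 18.1 FPKM in control seedlings, 31.1 FPKM in low fluence seedlings and 217 FPKM in high fluence seedlings. Of its 4 transcripts, 3 were at least 2-fold higher at high than at low fluence and 1 was at least 2-fold lower. The higher pair and the lower run of 3 lay close together in the identifier order and differed in opposite directions.

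**Figure D4:**
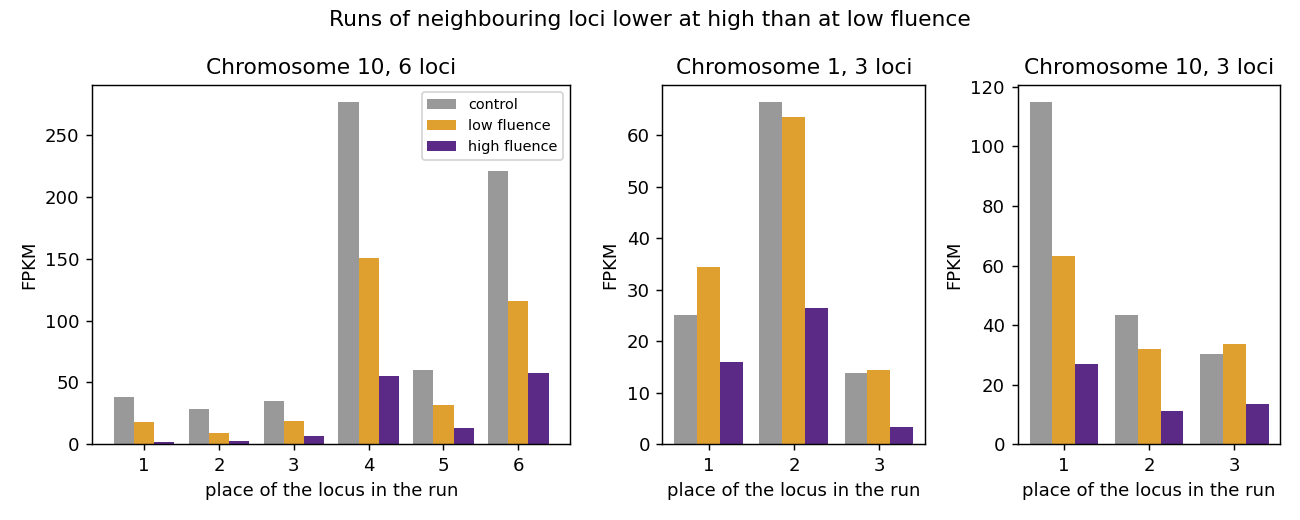
Bars give FPKM in the control, low fluence and high fluence libraries for the loci of the 3 longest runs, numbered by their place in the identifier order. In each locus the high fluence bar is the lowest of the 3, and in the run of 6 the low fluence bar lies between the control and high fluence.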

How the data were processed

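Whole rice seedlings were profiled by RNA sequencing in 3 libraries of pooled RNA, 1 per group. Per the file headers, the deposited values are FPKM of single transcripts. The submitters' processing notes name TopHat2 2.0.5. The quantification program, build, annotation and strand setting were not given in the sources used here. FPKM was summed over the transcripts of a LOC_Os identifier, kept above 0 in all libraries at a mean of at least 10, and compared as log2 of (FPKM + 1), so that changes of low loci are understated. No test was run. Named loci are the 2 highest and 2 lowest ratios, those at the threshold, and the leading locus of the longest runs; others, and the 4 loci on opposite sides of the control, were picked with their values in view. The loci and lists were chosen with earlier results of these data known. FPKM carry no counts, so relative depth was estimated from single-transcript loci under 0.2 FPKM, whose ratios fall on steps of whole fragments (within 1%, multiples up to 6) for 83.2% of 559 loci at low fluence against control, 78.2% of 983 at high fluence against control, and 78.5% of 633 between the irradiated libraries, and no counting interval is given. The alternatives were scaling, pseudocount, minimum mean, threshold, single transcripts and adding assembled units. Scripts were tested on simulated data (Python 3.11.15, pandas 2.3.3, NumPy 2.4.6, Matplotlib 3.10.9).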

Additional observations from a re-analysis of the deposited data

Results flagged for a closer look

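In 4 of the 381 loci the irradiated libraries lay at least 2-fold on opposite sides of the control. They are named because of their values. The difference was not tested, since each group had 1 library, and all comparisons share the control. LOC_Os08g04210 had 4.34 FPKM in control seedlings, 1.52 FPKM in low fluence seedlings and 41.8 FPKM in high fluence seedlings (log2 ratio of high to low fluence 4.09). LOC_Os07g08340 stood at 8.53, 2.49 and 25.1 FPKM in the control, low and high fluence libraries (log2 ratio 2.91). Added to the assembled unit on the row beside it, LOC_Os07g08340 had a log2 ratio of 0.20. LOC_Os01g52240 had 65.9 FPKM in control seedlings, 143 FPKM in low fluence seedlings and 11.0 FPKM in high fluence seedlings (log2 ratio -3.59, and -2.22 with its assembled units added). LOC_Os12g11980 had 10.2 FPKM in control seedlings, 55.2 FPKM in low fluence seedlings and 1.49 FPKM in high fluence seedlings (log2 ratio -4.50, and -1.09 with its assembled units added). No unit stood beside LOC_Os08g04210.

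Assembled units were outside the choice of loci. Of 2848 past the same filter, 101 were at least 2-fold higher at high than at low fluence, or 3.55%, and 198 at least 2-fold lower, or 6.95%. Among annotated loci these shares were 1.16% and 2.96%. At high fluence, 46 units were at least 2-fold higher than in both other libraries. No matching share of annotated loci is given, so nothing is read from the 46. The counts of units were not repeated at other scalings.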

How the results depend on the processing

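No paired analysis was possible because each group has 1 library. The medians of the gene lists could not be computed, since no identifier was paired with a name. Counts are given as higher and lower. They stayed within 1.5 times of 107 and 274 under median-of-ratios scaling, with loci listed at 0 kept and with the mean over the irradiated libraries alone, and with a pseudocount of 0.1. Lower loci made up 71.9% of those changed. That share was 61.5% under upper-quartile scaling, 61.9% with ratios centred on expression bins, 53.2% with an equal FPKM sum over annotated loci (177 lower), and 1.51% with an FPKM sum of 1000000 over all transcripts (1436 and 22). The median log2 ratio of all loci was -0.09, 0.06 with the equal annotated sum and 0.83 with the sum of 1000000, and on the last scale 46 of the 107 and 133 of the 274 passed the minimum mean, of which 46 and 22 were still called. A pseudocount of 5 gave 65 and 163. No minimum mean gave 536 and 826 (60.6% lower), a minimum of 5 gave 213 and 436, and a minimum of 50 gave 13 and 77 (85.6% lower). A ratio of at least 1.5 gave 402 and 997, and one of at least 3 gave 27 and 72. Each transcript on its own gave 172 higher and 333 lower (65.9% lower). Adding assembled units gave 187 and 450, of which 56 and 214 were among the 107 and 274. The filter was applied again to the summed levels, so loci that had been under it could enter, and the number then tested is not given. The cause of these changes was not tested. For 19 of the loci named in the text, 13 settings gave 229 values, none of which changed direction. Of these values, 15 came under 2-fold and 6 came past it, and 9 of the 19 loci missed the minimum mean in at least 1 setting. LOC_Os04g52361 was not among the 19, and its log2 ratio turned from -1.34 to 1.04 with its unit added. The depth of the libraries is known only as a ratio.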
